A study of Mus musculus with 8 samples.

Results

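The genes described here are the fibrillar collagen genes of intestinal stroma, Col1a1, Col1a2, Col3a1, Col5a1, Col5a2 and Col5a3, together with Col12a1 and Col14a1. They were taken by gene symbol, and all 8 were found among the 53801 rows of the count table. All 8 also passed the low-count filter that kept 15643 genes. The label fibrillar holds for 6 of them by textbook classification, since Col12a1 and Col14a1 encode fibril-associated collagens with interrupted helices (FACITs), which attach to the surface of fibrils and do not form them.

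RNA came from cells of the mouse small intestine that lacked CD45 and CD31, the surface markers of leukocytes and endothelium, and that were positive for YFP. The mice are named LTβRfloxPDGFRα/YFP in the labels, so every library shares the floxed lymphotoxin β receptor gene and the YFP reporter, and no library without them was analysed here. Cells sorted and labelled as PDGFRα+ (4 libraries numbered 1 to 4) were compared with cells labelled as PDGFRα- (also 4 libraries numbered 1 to 4), names that are used here as the labels give them, since Pdgfra RNA was as high in the latter. The labels give no age, do not say what drives the recombination, and do not say whether each library is a different animal. The p-values here reflect only how these samples vary, and part of that variation may be technical.

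Collagen I is a trimer of 2 chains from Col1a1 and 1 from Col1a2, and with collagen III, a trimer of Col3a1 chains, it makes up most of the fibrils of the gut wall. Collagen V chains are buried in those fibrils, start their assembly and limit their width. Collagens XII and XIV, from Col12a1 and Col14a1, decorate the fibril surface and link it to its surroundings. Fibroblasts are the main source of these RNAs in the intestine.

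The division between the 6 fibril-forming genes and the FACIT pair can be read from the coding sequences (GENCODE M21 transcripts, build GRCm38). A collagen helix needs glycine, codon GGN, as the first residue of each triplet. The longest uninterrupted run of such repeats was 338 repeats in Col1a1, 339 in Col1a2, 344 in Col3a1, 338 in Col5a1, 339 in Col5a2 and 337 in Col5a3. It was 32 repeats in Col12a1 and also 32 in Col14a1. Runs of at least 10 repeats covered 57.9% (Col5a1) to 77.2% (Col1a2) of the codons of the fibril-forming genes, 7.63% of those of Col12a1 and 13.0% of those of Col14a1. The first 8 repeats of the longest run are shown for the abundant collagen I and III genes and for the FACIT pair, because those 5 genes carry the differences described below. Capitals mark the GGN codon that opens each repeat, and sequences read 5′ to 3′ on the coding strand. GGN codons at other places of a repeat, as in Col3a1, are in lower case.
Col1a1: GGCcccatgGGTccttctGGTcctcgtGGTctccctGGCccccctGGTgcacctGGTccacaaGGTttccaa
Col1a2: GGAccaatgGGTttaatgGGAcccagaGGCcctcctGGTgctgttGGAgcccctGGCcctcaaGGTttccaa
Col3a1: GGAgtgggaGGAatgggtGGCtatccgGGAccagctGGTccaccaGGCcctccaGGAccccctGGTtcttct
Col12a1: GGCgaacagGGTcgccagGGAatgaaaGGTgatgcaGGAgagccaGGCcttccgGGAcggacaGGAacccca
Col14a1: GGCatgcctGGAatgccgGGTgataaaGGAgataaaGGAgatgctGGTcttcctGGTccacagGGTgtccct

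In GRCm38, Col1a1 lies on chromosome 11 (94936224 to 94953042, plus strand), Col1a2 on chromosome 6 (4504814 to 4541544, plus), Col5a1 on chromosome 2 (27886425 to 28039514, plus) and Col14a1 on chromosome 15 (55307750 to 55520803, plus). Col5a3 (20770050 to 20815067) and Col12a1 (79598991 to 79718831) are both on the minus strand of chromosome 9. Col3a1 (45311538 to 45349706, plus) and Col5a2 (45374321 to 45503282, minus) are neighbours on chromosome 1, with their ends 24.6 kb apart. Exons of Col5a1 overlap 2810430I11Rik and Gm13372 on the other strand, whose highest counts were 281 and 31 in any library, against at least 52591 for Col5a1. Col3a1 exons hold the miRNA gene Gm47302, which had 0 counts in every library.

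Libraries held 12926651 to 35115771 counts. RNA of Pdgfra, the gene of the sorted surface protein, did not separate the labelled fractions: it stood at 721, 750, 663 and 475 CPM in libraries labelled PDGFRα- and 610, 656, 624 and 497 CPM in those labelled PDGFRα+ (a log2 difference of -0.13 ± 0.17, with an edgeR adjusted p of 0.971), where CPM are counts per 1000000 of library size, scaled by edgeR's TMM method. The directions below therefore follow the labels of the sort and are not backed by the RNA of its marker. Of 6 fibroblast markers, all were detected in every library, with a summed level of 7057 to 12040 CPM in PDGFRα- and 6841 to 9180 CPM in PDGFRα+ libraries. With the replicate number in the model, Dpt was called lower and Vim higher in that list, and Abcc9 lower and Cspg4 higher among pericyte markers. Dcn was at 3942 to 7351 CPM in PDGFRα- and 3585 to 5157 CPM in PDGFRα+ libraries. Smooth muscle markers (7 of 7 detected) summed to 445 to 1864 and 547 to 1552 CPM, and pericyte markers (6 of 7, Higd1b at 0) to 1129 to 1805 and 974 to 1439 CPM. Endothelial markers (5 of 5) summed to 21.9, 22.5, 60.0 and 497 CPM in the PDGFRα- libraries and 17.5 to 98.3 CPM in the PDGFRα+ libraries, so PDGFRα- library 4, with 497 CPM, stood apart. Leukocyte markers (5 of 6, Itgam at 0) summed to 36.1 to 121 and 22.8 to 68.1 CPM, and those of epithelium (7 of 7) to 2.97 to 33.9 and 2.03 to 7.87 CPM. Markers of glia (4 of 4), neurons (3 of 4, Tubb3 at 0), mesothelium (4 of 4) and interstitial cells of Cajal (3 of 3) summed to at most 37.4 CPM in any library. Their part in the results below was not tested.

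The 8 genes took a smaller share of the RNA in every PDGFRα+ library than in any PDGFRα- library. Of all counts, they made up 15.5%, 14.3%, 14.1% and 12.2% across PDGFRα- libraries 1 to 4. Across PDGFRα+ libraries 1 to 4 the shares were 11.5%, 9.54%, 10.04% and 11.4%. The means were 14.01% ± 1.33 and 10.6% ± 0.976 (SD, n = 4 each). Nearly all of the gap lay in Col1a1, Col1a2 and Col3a1, which summed to 13.0% ± 1.26 and 9.70% ± 0.942. The collagen V genes summed to 0.722% ± 0.0544 in PDGFRα- and 0.717% ± 0.0305 in PDGFRα+ libraries, with overlapping values. The FACIT pair, mostly Col14a1, summed to 0.249% ± 0.0273 and 0.196% ± 0.0199. Its values overlapped too, with 0.212% in PDGFRα- library 4 and 0.222% in PDGFRα+ library 4. These shares are a description and were not tested. Fewer cells of a collagen-rich type and less collagen RNA per cell cannot be told apart in bulk RNA.

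**Figure D1:**
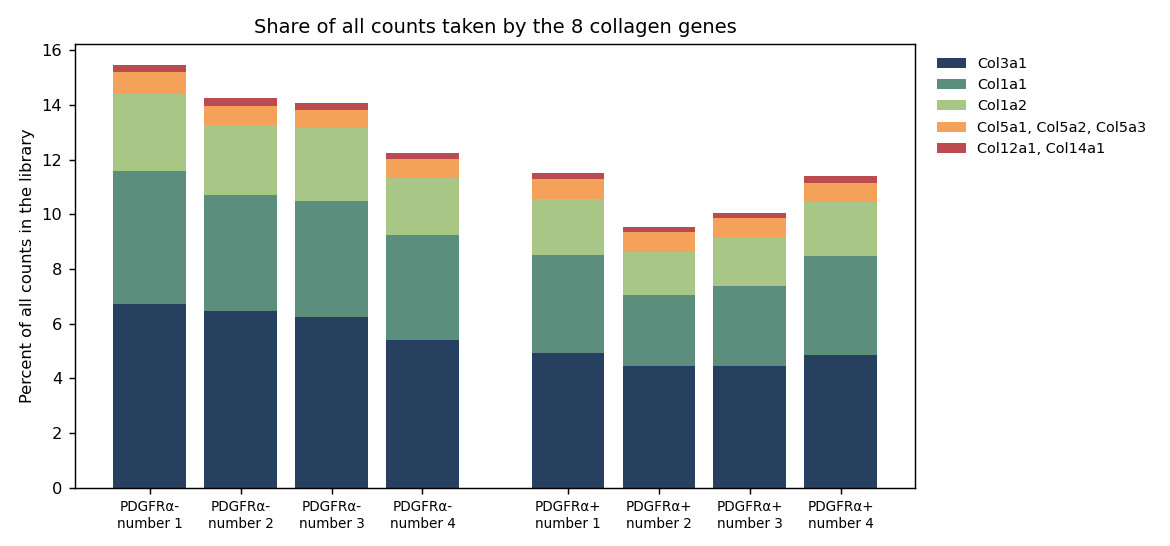
Percent of all counts in each library (y axis) taken by Col3a1, Col1a1, Col1a2, the 3 collagen V genes and the FACIT pair, stacked, for PDGFRα- and PDGFRα+ libraries 1 to 4. The PDGFRα- bars reach 12.2% to 15.5% and the PDGFRα+ bars 9.54% to 11.5%, and the difference sits in the lower 3 segments.

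Per length, collagen III and I RNAs were far above the others. On the scale of CPM per kb of the longest coding transcript, levels in PDGFRα- libraries were 11601 ± 1535 for Col3a1, 7542 ± 1037 for Col1a1 and 4926 ± 776 for Col1a2, followed by 515 ± 47.7 for Col5a1. Next came Col5a2 at 417 ± 71.9 and Col14a1 at 365 ± 62.7, and then Col5a3 at 67.7 ± 6.93 and Col12a1 at 20.2 ± 3.76 CPM per kb. Over all 8 libraries Col3a1, Col1a1 and Col1a2 ranked 6, 7 and 8 among the genes of the table on this scale. The order was the same in PDGFRα+ libraries (8151 ± 641, 5225 ± 942, 3345 ± 430, 504 ± 24.5, 342 ± 42.9, 231 ± 27.9, 74.2 ± 6.52 and 35.7 ± 8.89 CPM per kb). Neighbours in that order whose libraries overlapped were Col5a1 and Col5a2, and Col5a2 and Col14a1, both among the PDGFRα- libraries. The length matters for the top of the order. With all annotated exons merged, including those of retained-intron transcripts, the mean of Col1a1 (6814 ± 937 CPM per kb) stood above that of Col3a1 (6576 ± 870) in PDGFRα- libraries, and Col1a2 was at 2120 ± 334. The values of Col1a1 and Col3a1 overlapped, and in PDGFRα- library 2 Col3a1 (6936) was above Col1a1 (6763).

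Without the replicate number in the model, none of the 8 genes passed the edgeR quasi-likelihood test at a Benjamini-Hochberg adjusted p of 0.05 over all genes, where 0.243% of genes did (0.192% higher and 0.0511% lower). Before adjustment, 5 of the 8 had p under 0.05 (all genes, 6.95%), and limma-voom called 0. DESeq2 called 4, with Col12a1 as higher and Col14a1, Col1a2 and Col3a1 as lower (all genes, 0.899% higher and 0.669% lower, 1.57% together). With the number as a block, edgeR called 5, namely Col12a1 as higher (all genes, 1.34% higher) and Col1a1, Col1a2, Col3a1 and Col14a1 as lower (all genes, 0.933% lower). The authors' deposited table calls those 5 and Col5a2 as lower (all genes, 2.3% higher and 2.52% lower, 4.82% together). Its dispersions are matched by DESeq2 when the model holds the replicate number beside the group, which is why the blocked fit is given here, although the labels do not say what same-numbered libraries share. The median log2 fold change of the 8 was -0.40 without and -0.39 with the block, beside -0.01 over all tested genes in both fits. On library totals without TMM the blocked calls over all genes were 297 higher and 97 lower in place of 209 and 146, and the same 5 members were called.

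**Figure D2:**
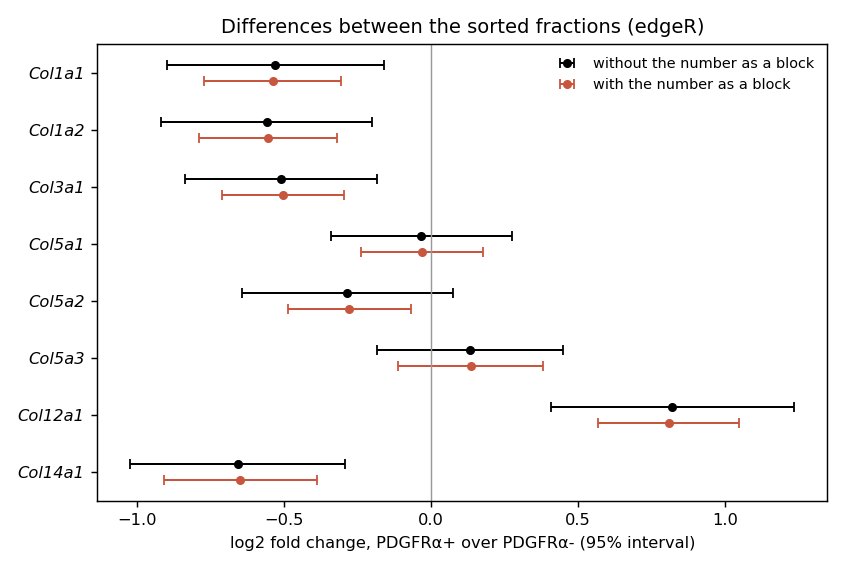
Log2 fold change of PDGFRα+ over PDGFRα- libraries (x axis) for each gene (y axis), with 95% intervals, from the edgeR fits without (black) and with (red) the replicate number as a block. Estimates of both fits nearly coincide, from -0.66 for Col14a1 to 0.82 for Col12a1, and the blocked intervals are narrower.

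The collagen I chain genes were called lower in PDGFRα+ cells in the blocked fit alone of the edgeR fits to the filtered genes, by like amounts. Col1a1, which encodes the chain present in 2 copies per trimer, stood at 53118, 44386, 42977 and 38410 CPM in PDGFRα- libraries 1 to 4 and at 36171, 24445, 28266 and 35053 CPM in PDGFRα+ libraries 1 to 4. The groups did not overlap (lower without overlap, 2.36% of all genes, and 5.05% in either direction), and the smallest same-numbered gap was that of number 4. The mean was 1.44-fold higher in PDGFRα- libraries, with a log2 fold change of -0.53 ± 0.17 (SE, edgeR adjusted p = 0.378) without the block and -0.54 ± 0.11 (edgeR adjusted p = 0.0155) with it.

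Col1a2, which encodes the other chain, stood at 30858, 27086, 26626 and 20811 CPM in PDGFRα- libraries 1 to 4. In PDGFRα+ libraries 1 to 4 it stood at 20327, 14962, 17344 and 18922 CPM. Here too every PDGFRα+ library lay below every PDGFRα- library, but PDGFRα- library 4 and PDGFRα+ library 1 nearly met. The mean was 1.47-fold higher in PDGFRα- libraries (log2 fold change -0.56 ± 0.17 SE, edgeR adjusted p = 0.297, and -0.55 ± 0.11 SE, edgeR adjusted p = 0.0137 with the block).

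Col3a1, the collagen III gene, stood at 73664, 68087, 62876 and 53569 CPM in PDGFRα- libraries 1 to 4 and at 49654, 42194, 42660 and 46893 CPM in PDGFRα+ libraries 1 to 4. The groups were separate, and PDGFRα- library 4 was again the lowest of its group. PDGFRα+ over PDGFRα- gave a log2 fold change of -0.51 ± 0.15 (SE, edgeR adjusted p = 0.297) and with the block -0.50 ± 0.10 (SE, edgeR adjusted p = 0.0107), a 1.42-fold higher mean in PDGFRα- libraries. With the block, Col1a1, Col1a2 and Col3a1 did not pass when number 1 was left out (edgeR adjusted p = 0.0759, 0.0752 and 0.0687) or number 3 (0.189, 0.174 and 0.170). Without number 2 they passed (edgeR adjusted p = 0.0376, 0.0317 and 0.0252), with smaller log2 fold changes of -0.42, -0.45 and -0.43. Without number 4, which holds the endothelium-rich library, their adjusted p values were 0.0014, 0.0014 and 0.0018 and their log2 fold changes -0.67, -0.69 and -0.61.

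The 3 collagen V genes did not share this difference as a group. Col5a1, whose chain is part of nearly all collagen V trimers, stood at 4929, 4208, 4101 and 4092 CPM in PDGFRα- and 4368, 4153, 3980 and 4430 CPM in PDGFRα+ libraries 1 to 4. The groups overlapped widely, and the log2 fold change of -0.03 ± 0.14 (SE, edgeR adjusted p = 0.995) had a 95% interval from -0.34 to 0.27. Its sign was not stable, at 0.06 on library totals without TMM and 0.04 without PDGFRα- library 1. With the block the interval ran from -0.24 to 0.18.

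Col5a2, the partner chain, stood at 3408, 2828, 2447 and 2363 CPM in PDGFRα- libraries 1 to 4. In PDGFRα+ libraries 1 to 4 it stood at 2688, 2180, 2078 and 2120 CPM, lower in each of the 4 same-numbered comparisons while the groups overlapped. Its log2 fold change came to -0.28 ± 0.17 (SE, edgeR adjusted p = 0.857) and -0.28 ± 0.10 (SE, edgeR adjusted p = 0.209) with the block, and the authors' deposited table lists -0.29 with an adjusted p of 0.0422. Being lower in all 4 same-numbered comparisons held for 10.2% of all genes, and being higher in all 4 for 10.3%.

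Col5a3, a minor collagen V chain, stood at 441, 456, 396 and 363 CPM in PDGFRα- and 431, 479, 411 and 496 CPM in PDGFRα+ libraries 1 to 4. It was higher in PDGFRα+ libraries for 3 of 4 numbers and the groups overlapped, with a log2 fold change of 0.13 ± 0.15 (SE, edgeR adjusted p = 0.970, 95% interval -0.18 to 0.45). None of the alternatives tried called Col5a1 or Col5a3.

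The FACIT pair went in opposite directions, each called by edgeR with the block and by DESeq2 in both designs. Col12a1, which encodes the collagen XII chain, stood at 212, 219, 202 and 297 CPM in PDGFRα- libraries 1 to 4 and at 328, 374, 380 and 560 CPM in PDGFRα+ libraries 1 to 4. Every PDGFRα+ library was above every PDGFRα- library (higher groups without overlap, 2.69% of all genes), and library 4 was the highest in each group. The mean was 1.77-fold higher in PDGFRα+ libraries, with a log2 fold change of 0.82 ± 0.19 (SE, edgeR adjusted p = 0.131) without the block and 0.81 ± 0.11 (SE, edgeR adjusted p = 8.2e-04) with it. Col12a1 was the member called whichever number was left out of the blocked fit (edgeR adjusted p from 3.6e-04 to 0.0289).

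Col14a1, which encodes the collagen XIV chain, stood at 2649, 2676, 2296 and 1808 CPM in PDGFRα- libraries 1 to 4. The PDGFRα+ libraries 1 to 4 held 1704, 1378, 1314 and 1582 CPM, all below the lowest PDGFRα- library. The mean was 1.58-fold higher in PDGFRα- libraries (log2 fold change -0.66 ± 0.17 SE, edgeR adjusted p = 0.195, and -0.65 ± 0.12 SE, edgeR adjusted p = 0.00882 with the block). The blocked call was lost without number 3 (edgeR adjusted p = 0.141) and kept without number 1 (0.0476).

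**Figure D3:**
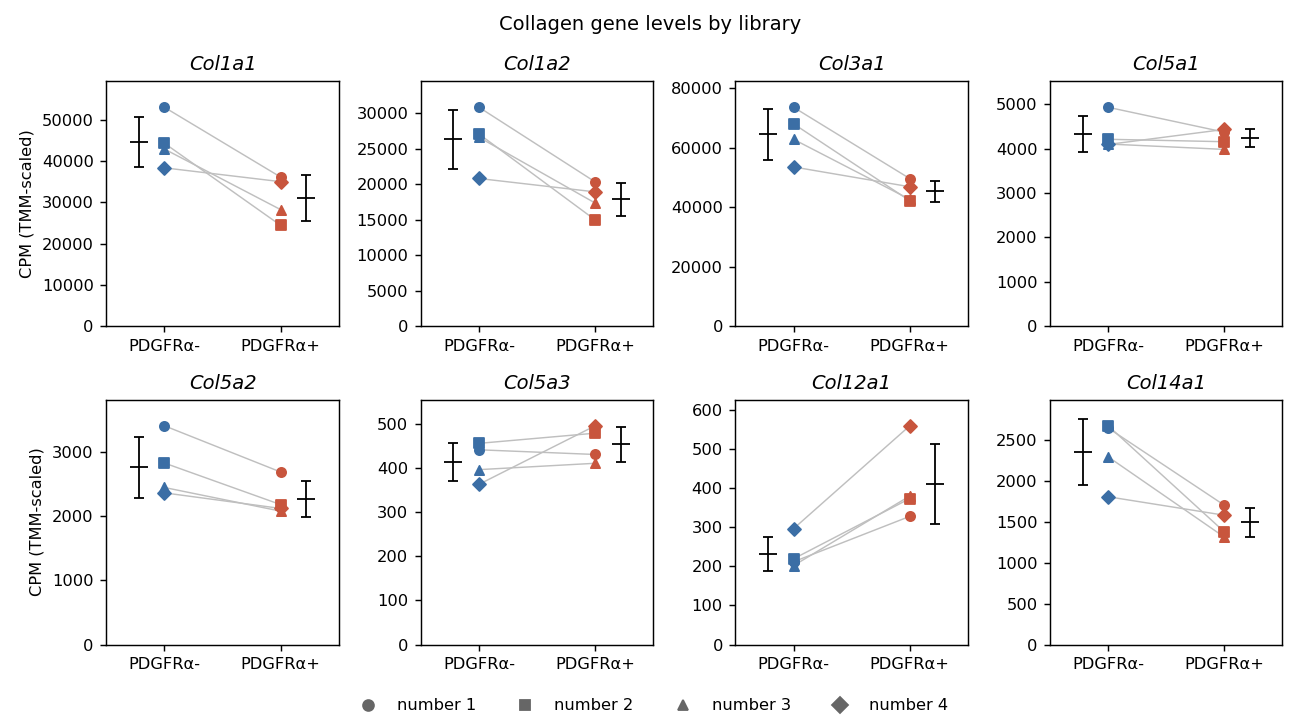
Level of each gene in CPM (y axis, from 0, TMM-scaled) in PDGFRα- (blue) and PDGFRα+ (red) libraries, with marker shapes and grey lines for the replicate number and bars for mean ± SD of 4 libraries. Col1a1, Col1a2, Col3a1 and Col14a1 lie lower and Col12a1 higher in all PDGFRα+ libraries, while the collagen V genes overlap.

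Ratios between genes within a library need no scaling between libraries, and 4 were tested with an exact two-sided permutation test over libraries, whose smallest possible p is 0.0286. The Col1a2 to Col1a1 ratio of counts per kb was 0.652 ± 0.0388 in PDGFRα- and 0.645 ± 0.0409 in PDGFRα+ libraries (SD, n = 4 each, exact permutation p = 0.771). Col3a1 to Col1a1 was 1.54 ± 0.0732 and 1.58 ± 0.188 (exact permutation p = 0.800). For both ratios the groups overlapped, and the balance of the abundant chains differed by less than the spread between libraries.

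For collagen V against collagen I, only the ratio of Col5a1 to Col1a1 was tested, and it differed more. Col5a1 to Col1a1 was 0.0655, 0.0669, 0.0673 and 0.0751 in PDGFRα- and 0.0852, 0.120, 0.0993 and 0.0892 in PDGFRα+ libraries 1 to 4. All PDGFRα+ libraries were above all PDGFRα- libraries, with a 1.42-fold higher ratio (exact permutation p = 0.0286, adjusted over the 4 ratios 0.0571). Without the block, Col5a1 itself had a log2 fold change of -0.03 with overlapping groups, and Col1a1 one of -0.53. The ratio therefore mostly restates the Col1a1 difference in the same libraries and is not separate support. Col12a1 to Col14a1 was 0.0449, 0.0460, 0.0494 and 0.0920 in PDGFRα- and 0.108, 0.152, 0.162 and 0.199 in PDGFRα+ libraries 1 to 4. It was 2.74-fold higher in PDGFRα+ cells and the groups were separate (exact permutation p = 0.0286, adjusted over the 4 ratios 0.0571). Every PDGFRα+ library was above every PDGFRα- library for Col12a1 and below for Col14a1. The separation of their ratio and its p were therefore fixed by the results of the single genes and add no further support. Both adjusted values missed the threshold of 0.05, in a design where p cannot fall below 0.0286.

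**Figure D4:**
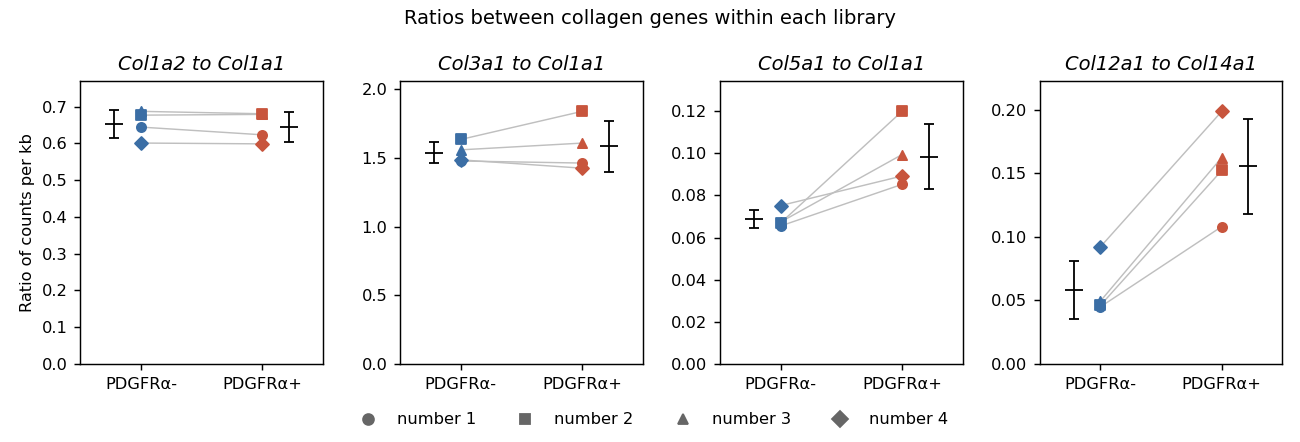
Ratios of counts per kb between gene pairs (y axes, from 0) in PDGFRα- (blue) and PDGFRα+ (red) libraries, with shapes and lines for the replicate number and bars for mean ± SD of 4 libraries. Col1a2 to Col1a1 and Col3a1 to Col1a1 overlap between groups, whereas Col5a1 to Col1a1 and Col12a1 to Col14a1 are separate, the latter from 0.0920 at most in PDGFRα- to at least 0.108 in PDGFRα+.

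Among themselves, the genes ranged from close tracking of collagen I to opposite courses. Pearson's r of log2 CPM over the 8 libraries, given as a description since the libraries share 2 groups and 4 numbers, was 0.97 between Col1a1 and Col1a2, 0.98 between Col1a2 and Col3a1 and 0.99 between Col3a1 and Col14a1. After subtracting group means these were 0.92, 0.95 and 0.97. Col5a2 was intermediate, at 0.82 with Col1a1, 0.84 with Col1a2 and 0.86 with Col3a1, and Col5a1 gave 0.59 with Col1a1 and 0.77 after subtracting group means. Col12a1 ran against Col3a1 at -0.85, and at -0.41 after subtracting group means. Col5a3 and Col1a1 gave -0.22 over the libraries and 0.33 within groups.

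Outside the 8, the genes most like the mean of Col1a1, Col1a2 and Col3a1, among 6241 genes with a mean of at least 20 CPM, were Aebp1 (r = 0.98), which encodes a secreted collagen-binding protein, and the proteoglycan gene Ogn (0.98). They were followed by the hedgehog co-receptor gene Boc (0.97), the BMP antagonist gene Grem1 (0.96), the metalloreductase gene Steap3 (0.95) and the matricellular protein gene Sparc (0.95). Boc (0.98) and Sparc (0.96) were also nearest to Col14a1. Nearest to Col12a1 were Enah, an actin regulator gene (0.98), and Col27a1 (0.95). Art4 (0.97) and Gas6 (0.94) were nearest to Col5a2, Zfp354c (0.93) and Gm26917 (0.91) to Col5a1, and Drg1 (0.96) and Fip1l1 (0.93) to Col5a3. As the highest of 6241 values over 8 libraries each, these r values can be large by chance, and they were not tested. After subtracting group means, r rose to 0.97 and 0.96 for the genes nearest to Col5a1 and fell for all others. It was lowest for Sparc with the collagen I and III genes (0.82) and for Col27a1 with Col12a1 (0.83). Exons of Drg1 overlap Sfi1 on the same strand, and those of Gas6 and Fip1l1 overlap genes on the other strand.

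The remaining collagen genes held edgeR calls in the higher direction alone. Of 4 tested genes for other fibril-forming collagens, 2 were called higher with the block, 0 without it (edgeR, 2 at an unadjusted p under 0.05, DESeq2 1, limma-voom 0). They were Col27a1 (39.5 ± 15.3 and 89.6 ± 20.7 CPM, blocked edgeR adjusted p = 3.6e-04) and Col24a1 (8.34 ± 3.27 and 22.9 ± 15.3 CPM, blocked edgeR adjusted p = 0.0371). Of 6 tested FACIT genes besides the pair, 1 was called higher in both fits, Col22a1 (2.60 ± 1.62 and 19.3 ± 6.34 CPM), with a log2 fold change of 2.90 ± 0.48 (SE, adjusted p = 0.0246 by edgeR). Col16a1, singled out after its values were seen, stood at 485 ± 29.7 and 470 ± 41.8 CPM and was not called. Of 22 tested genes of network, basement membrane and other collagens, 1 was called higher without the block and 5 with it. Col6a5 (209 ± 50.9 and 667 ± 181 CPM) passed both tests, and Col6a4 (44.2 ± 18.5 and 173 ± 60.5 CPM) and Col18a1 (348 ± 139 and 741 ± 340 CPM) the blocked one. Median log2 fold changes without the block were 0.54, -0.78 and 0.09 for these 3 lists, beside -0.01 over all genes.

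Genes that fold and modify procollagen in the endoplasmic reticulum, such as prolyl and lysyl hydroxylases and the chaperone gene Serpinh1, had no call. None of 18 passed in either edgeR fit (before adjustment, 0 without and 5 with the block had p under 0.05, while limma-voom and DESeq2 called 0), with a median log2 fold change of -0.05. In the list of propeptide cleavage and crosslinking, 1 of 13 was called higher without the block, and 2 higher and 2 lower with it. Adamts14, whose product removes the amino-terminal propeptide, was called in both fits (20.9 ± 2.83 and 57.6 ± 21.97 CPM, edgeR adjusted p = 0.0363 unpaired). Its relative Adamts3 (14.3 ± 0.564 and 27.9 ± 5.26 CPM) was called higher with the block. Lower with the block were Pcolce2, an enhancer of carboxy-terminal cleavage (34.5 ± 13.7 and 14.9 ± 6.04 CPM), and the lysyl oxidase gene Lox (609 ± 64.1 and 409 ± 97.0 CPM). The median of this list was -0.01.

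Of 12 tested genes for proteins that bind or organise fibrils, 1 was higher without the block, and 3 were higher and 2 lower with it. The fibronectin gene Fn1 was called in both fits at 1452 ± 242 and 2961 ± 644 CPM. Prelp (101 ± 29.7 and 167 ± 52.8 CPM) and Thbs2 (173 ± 149 and 244 ± 158 CPM) were called higher with the block. Sparc (10161 ± 1472 and 7349 ± 502 CPM) and Dpt (1313 ± 209 and 893 ± 87.5 CPM), whose product binds collagen fibrils, were called lower with it. The median log2 fold change was -0.29.

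No collagen receptor gene of 9 (integrins, discoidin domain receptors and Mrc2 among them) and no collagen degradation gene of 8 tested was called by edgeR in either fit. Before adjustment, 3 and 1 had p under 0.05 without and 3 and 2 with the block, DESeq2 and limma-voom called 0 in both lists without the block, and DESeq2 called 1 in each with it. Median log2 fold changes without the block were 0.32 for the receptors (7 of 9 positive) and 0.18 for the degradation genes (5 of 8 positive), beside -0.01 over all genes. Of 20 tested regulators of collagen genes, 0 were called without the block (edgeR, 3 at an unadjusted p under 0.05, DESeq2 1, limma-voom 0), and 2 were higher and 1 lower with it. Higher were Ctgf, the connective tissue growth factor gene (31.4 ± 17.3 and 91.2 ± 64.4 CPM), and the TGF-β receptor gene Tgfbr2 (507 ± 201 and 725 ± 258.5 CPM). Lower was the ligand gene Tgfb3 (373 ± 49.7 and 248 ± 15.5 CPM). Among the named list genes called with the block alone, library values of the fractions overlapped for Col24a1, Col18a1, Pcolce2, Prelp, Thbs2, Ctgf and Tgfbr2. Exons of Ctgf, Fn1, Lox, Prelp, Tgfb3, Col22a1 and Col6a4 overlap genes on the other strand.

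Promoter windows of RefSeq (GRCm38.p6) were at hand for 4 of the 8 genes, and that of Col1a2 was left out because it overlaps exons of Col1a2 in GENCODE M21, whose start differs. The 250 bases before the annotated start are shown for Col3a1 (chr1:45311288-45311537, plus strand), which was called lower with the block, and for Col5a1 (chr2:27886175-27886424, plus), which was not called. Capitals mark matches to the CAAT box, spelled CCAAT, the box bound by SP1-type factors, spelled GGGCGG and called GC box here, and the TATA box, spelled TATAAA. Each was searched on both strands, and no matches overlapped one another.
Col3a1: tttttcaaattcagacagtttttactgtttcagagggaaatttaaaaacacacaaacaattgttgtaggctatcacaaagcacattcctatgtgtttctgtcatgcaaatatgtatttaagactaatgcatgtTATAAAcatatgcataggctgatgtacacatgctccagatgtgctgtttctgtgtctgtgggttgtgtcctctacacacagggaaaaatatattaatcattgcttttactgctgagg
Col5a1: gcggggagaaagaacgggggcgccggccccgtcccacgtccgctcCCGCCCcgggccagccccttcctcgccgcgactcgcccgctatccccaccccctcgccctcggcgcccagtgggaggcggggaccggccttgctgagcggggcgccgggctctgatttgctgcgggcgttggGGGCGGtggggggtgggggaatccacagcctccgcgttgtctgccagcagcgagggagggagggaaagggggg

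The Col3a1 window held 1 TATAAA match, 117 bases before the start, and neither of the others. The Col5a1 window held 2 GC box matches alone. The third usable window, that of Col5a3, is not shown and held 1 CCAAT and 2 GC box matches, with a GC content of 62.8%. Like Col5a1, Col5a3 was not called. GC content was 35.2% for Col3a1 and 76.4% for Col5a1, beside a median of 52.4% over all 32851 windows. Among all windows, 33.8% held a CCAAT match, 32.7% a GC box match and 12.4% a TATAAA match. These matches are a description of the letters in these windows, and a relation between them and the calls was not tested.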

How the data were processed

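The data were 8 RNA-seq libraries of sorted stromal cells, from a low-input kit that keeps strand, per the labels' protocols. Per the submitters' processing notes, reads were handled with cutadapt 3.4, STAR 2.7.3a, featureCounts 2.0.1 and DESeq2 on build GRCm38 (mm10), while settings, strand included, and the gene annotation were not given in the sources used here. Deposited by the authors were raw read counts per gene. The deposited table also holds size-factor-scaled counts in whole numbers, treated as a score and not used. It further holds the authors' ratio (fold change), log2 fold change, p-value and adjusted p-value per gene, and dispersions.

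Counts were compared with edgeR 4.0.16 in R 4.3.3 (quasi-likelihood, robust, TMM, filterByExpr, group as the only term), with Benjamini-Hochberg adjustment over 15643 genes and a threshold of 0.05. SE is the log2 fold change divided by the root of F. Deviations from group means of same-numbered libraries correlated at 0.23, 0.18, 0.02 and 0.25, the third under the 0.1 set for pairing, so the number is a block only in an alternative fit. That fit is printed because DESeq2 with number and group as terms returned the deposited gene-wise dispersions to within 1.6e-04% (group alone differed by a median of 29.7%). The edgeR fits were tested on data simulated with and without an effect of the number. With that effect, 11.3% of the calls were false in the blocked fit (8 of 71) and 4.44% in the fit without the block (2 of 45). In its absence the shares were 9.09% (6 of 66) and 8.45% (6 of 71). Each setting was simulated 1 time, and these small counts do not rank the fits. Simulated dispersions came from the fit without the block, which would already hold any effect of the number in the data. Of genes given a log2 change of 1 in size, the blocked fit recovered 14.9% with that effect and 9.57% in its absence. The fit without the block recovered 1.06% and 13.8%, so a gene without a call may still differ. DESeq2 1.42.0 and limma 3.58.1 were alternatives. Exact tests used scipy 1.17.1, and log2 CPM a prior count of 2. No libraries held identical values.

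Members, gene lists and tests were chosen with earlier results of these data known. Named besides members are list genes called in either fit (at most 3 per direction) and the genes with the highest r (6 for the collagen I and III genes, 2 for each other member). The reads carry no molecular identifier, so counts are not counts of independent molecules. Symbols and positions come from GENCODE M21, which holds 53620 of the 53801 identifiers. RefSeq supplied promoter windows for 4 of 8 members, and 1 that overlapped exons of its own gene was left out.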

Additional observations from a re-analysis of the deposited data

Results flagged for a closer look

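Among 32 groups of 4 values, each a gene's CPM, a share of counts or a ratio in 1 fraction, 3 held a library far from the other three, and chance alone sets apart about 1 group in 20. PDGFRα- library 1 stood above its group for Col5a1, at 4929 CPM. PDGFRα+ library 1 did so for Col5a2, at 2688 CPM. PDGFRα- library 4 did so for the ratio of Col12a1 to Col14a1 counts, at 0.164 against 0.0800, 0.0820 and 0.0880. That is also the library with 497 CPM of summed endothelial markers, and without it the log2 difference of this ratio between the fractions was 1.70 in place of 1.46.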

How the results depend on the processing

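Calls rested on the replicate number more than on scaling. In place of 38 genes and 0 members without it, the replicate block gave 355 genes and 5 members, DESeq2 with the block 809 and 6, DESeq2 alone 272 and 4, and no low-count filter 277 and 4. The block with scaling that left out the members gave 370 genes, with library totals only 394 and with RLE normalization 348, each with 5 members. Leaving out 1 library gave 7 to 49 genes and 0 members without the block, and leaving out 1 number from the blocked fit gave 196, 281, 99 and 300 genes and 2, 5, 1 and 5 members for numbers 1 to 4, Col12a1 alone being called without number 3. Of 8 libraries 7 correlated best with the other of their own number, PDGFRα- library 3 being the exception, a hint from the data and not the design. The cause of these differences was not tested.

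Col5a1 changed sign to a log2 fold change of 0.0639 on library totals only, 0.0156 in the replicate block without number 1 and 0.0645 in the block on library totals only, and was never called. Leaving out 1 library moved it between -0.0564 and 0.0374, the latter without PDGFRα- library 1. The other 7 members kept their direction under the 23 alternatives. Leaving out 1 library moved the log2 ratio of Col1a2 to Col1a1 between -0.0545 and 0.0197 and that of Col3a1 to Col1a1 between -0.0392 and 0.0833. It moved Col5a1 to Col1a1 between 0.41 and 0.57 and Col12a1 to Col14a1 between 1.33 and 1.70, where 3 against 4 libraries cannot go below an exact permutation p of 0.0571. Paired by number, those differences were 0.51 and 1.46, each with the smallest p that sign flips of 4 pairs allow, 0.125. For Col12a1 to Col14a1 these p-values followed from the separation of each gene between the fractions. The Col5a1 to Col1a1 ratio mostly restates the Col1a1 difference. The share of counts held by the members differed by -3.98 to -2.91 percentage points over all alternatives tried. Scalings added after seeing the data were library totals only and the blocked fits with another scaling.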
